A study of Mus musculus with 9 samples.

Results

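The comparison described here is between mice homozygous for a deletion of TAAR enhancer 1 and their wild type littermates, read over all genes with weight on those outside the Taar family. TAAR enhancer 1 is a noncoding element in the gene cluster of the trace amine-associated receptors (TAARs), a small family of olfactory receptors. The members are the 3 homozygous and the 3 wild type RNA-seq libraries, 6 of the 9 libraries of the experiment, and the other 3 came from heterozygous mice, which carry 1 deleted and 1 intact copy. Each library was made from the whole main olfactory epithelium (MOE) of 1 mouse. The labels give all mice as C57BL/6 at postnatal day 14, whereas the study's reporting summary describes mixed strain backgrounds and older animals for this line, and which holds here was not resolved. All carriers descend from 1 line made by CRISPR-Cas9, so an effect of the deletion and of anything else carried by that line cannot be told apart. In such bulk tissue, fewer cells of a type and less RNA per cell cannot be told apart either.

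The MOE is a layered epithelium. Horizontal and globose basal cells at its base renew it, and globose basal cells give rise to immature and then mature olfactory sensory neurons (OSNs), each of which expresses 1 receptor gene. Sustentacular cells span the epithelium around the neurons and are rich in enzymes that break down odorants and toxic compounds, while Bowman glands beneath it secrete mucus proteins. Dissected tissue also brings respiratory epithelium with motile cilia, secretory glands, connective tissue, bone, vessels, blood cells and, in some dissections, parts of the vomeronasal organ, which detects pheromones.

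The number of reads assigned to genes ranged from 24583906 to 32631951 among the 9 libraries. Levels are given in CPM, read counts scaled to a common library size with the trimmed mean of M-values (TMM), and 3 reads correspond to 0.0916 to 0.122 CPM, a limit that covers counting error only. The tissue matched its label, with Omp, the olfactory marker protein of mature OSNs, between 3045 and 3550 CPM in the 9 libraries. Mice that shared a genotype differed beyond counting noise in every pair, their chi-square being at least 4.47 times its degrees of freedom. Nothing in the labels says that mice of the same replicate number were paired.

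Several libraries stood apart from others of their own genotype. Reads of vomeronasal receptor genes (Vmn1r and Vmn2r) summed, without TMM scaling, to 14.6, 15 and 16.2 CPM in wild type replicates 1 to 3, to 67.5, 16.6 and 16 CPM in heterozygous replicates 1 to 3 and to 17.4, 120 and 69.7 CPM in homozygous replicates 1 to 3. Homozygous replicates 2 and 3 and heterozygous replicate 1 thus held more vomeronasal RNA than the rest, and homozygous replicate 1 did not. Heterozygous replicate 3 had the lowest summed level of the ciliated cell list, 728 CPM, and of the gland list, 9589 CPM. Wild type libraries held 852 to 952 and 12170 to 15440 CPM of these lists, and homozygous libraries 751 to 850.5 and 9668 to 12080 CPM. On both lists heterozygous replicate 3 therefore lay with or below the homozygous libraries.

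**Figure D1:**
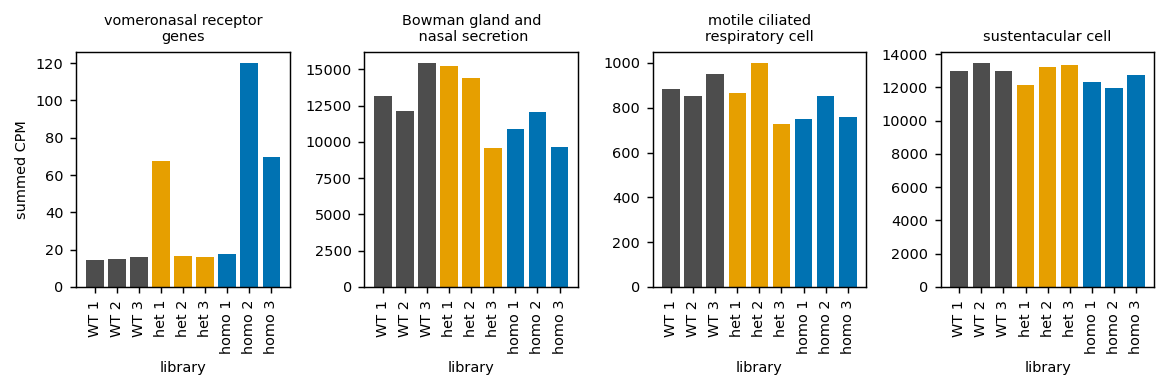
Summed CPM (vertical axes, linear from 0) of 4 gene groups in each of the 9 libraries (horizontal axes), with wild type in grey, heterozygous in orange and homozygous in blue. Vomeronasal receptor reads are high in homozygous replicates 2 and 3 and heterozygous replicate 1, and the gland and ciliated cell sums of heterozygous replicate 3 lie at or below those of the homozygous libraries.

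Few genes passed the threshold used, an adjusted p under 0.05 in the quasi-likelihood test of edgeR fitted to all 9 libraries. Of 20213 genes tested, 10 passed (0.0495%). Within the family, Taar7e rose and Taar9, Taar7b, Taar7a, Taar6, Taar5, Taar4, Taar3 and Taar2 fell, and the 14 olfactory Taar genes summed to between 44.6 and 44.9 CPM in wild type mice and between 19.3 and 25.3 CPM in homozygous mice. The only call outside the family was E030002O03Rik, which fell. TMM scaling centres the fold changes of all genes, and an unadjusted p under 0.05 was reached by 953 genes with lower levels in homozygous mice (4.71%) and 919 with higher levels (4.55%). The 3 homozygous libraries lay wholly below the 3 wild type ones for 1607 genes (7.95%) and wholly above them for 1508 (7.46%), and the median log2 fold change over all genes was -0.001. These shares are the background against which each gene list is read.

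**Figure D2:**
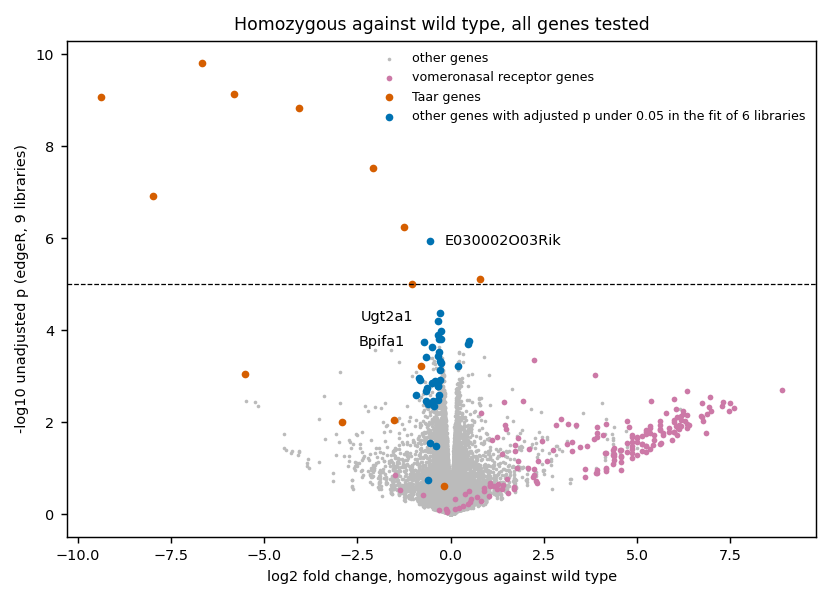
Each point is a gene, with the log2 fold change of homozygous against wild type on the horizontal axis and -log10 of the unadjusted edgeR p on the vertical axis. The dashed line marks the largest p among the 10 called genes, and E030002O03Rik is the 1 gene above it outside the Taar family. Blue points are other genes called when the 6 libraries alone were fitted, and the vomeronasal receptor genes in pink lie to the right. Folds of genes without reads in a group depend on the prior count of the fit.

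E030002O03Rik, listed by RefSeq as Olfm5, encodes a protein of the olfactomedin family, secreted glycoproteins of which several are abundant in olfactory tissue. It lies on chromosome 7 of GRCm38, the assembly also called mm10, at 104153013 to 104164831 on the minus strand, and shares no exon with another annotated gene. The Taar cluster is on chromosome 10. Its level was 62.5, 53.7 and 61.6 CPM in the wild type libraries, 44.1, 39.6 and 39.8 CPM in the heterozygous libraries and 37.3, 42.5 and 41.9 CPM in the homozygous libraries. All 6 libraries with a deleted copy lay below all 3 wild type libraries, and the heterozygous and homozygous ranges overlapped. The log2 fold change of homozygous against wild type was -0.55 (SE 0.0706, edgeR adjusted p = 0.00293), and that of homozygous against heterozygous was -0.02 (edgeR adjusted p = 0.949). In homozygous replicate 1, the library without added vomeronasal reads, the level was the lowest of the 9, and without homozygous replicates 2 and 3 it passed as well (log2 fold change -0.67, edgeR adjusted p = 0.0328). That fit has 1 homozygous library, which is assumed to vary like the libraries of the other genotypes. Leaving out 1 library at a time, it passed in all 9 fits, with edgeR adjusted p from 0.00151 to 0.0452.

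The other members of the olfactomedin list did not pass, and of the 10 tested, including E030002O03Rik, 2 had an unadjusted p under 0.05 with a lower level and none with a higher one. The second was Olfml2b, an olfactomedin-like extracellular matrix gene, with 46.9, 36.9 and 43.3 CPM in wild type mice and 38.1, 34.1 and 39.0 CPM in homozygous mice, groups that overlapped. The median log2 fold change of the list was -0.05.

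Promoter sequences are shown for E030002O03Rik, the 1 call outside the family, and for 3 genes that stand for the groups described next, namely sustentacular enzymes (Ugt2a1), nasal secretions (Bpifa1) and motile cilia (Dnah6). They are the 250 bases before the RefSeq start on GRCm38.p6, 5′ to 3′ on the gene's strand, at chr7:104164817-104165066 (minus), chr5:87490872-87491121 (minus), chr2:154142630-154142879 (plus) and chr6:73221632-73221881 (minus). Capitals mark matches, on either strand, to 6 motifs, given here with the share of the 32851 windows of this length in the table that hold each. These are GTAAACA of forkhead factors (3.17%), GTTGCC as a core of RFX sites (10.43%), CCCNNGGG of olfactory EBF factors (11.8%), TAATTA of LIM homeodomain factors (4.84%), the TATA box TATAAA (12.4%) and the X-box repeat GTTGCNNNGCAAC (0.207%), which contains that core where its spacer begins with C. The X-box form was added after the sequence of Dnah6 had been seen.
E030002O03Rik: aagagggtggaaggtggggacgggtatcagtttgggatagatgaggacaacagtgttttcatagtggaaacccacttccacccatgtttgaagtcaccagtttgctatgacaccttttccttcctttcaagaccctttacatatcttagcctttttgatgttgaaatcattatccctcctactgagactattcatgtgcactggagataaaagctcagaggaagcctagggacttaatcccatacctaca
Ugt2a1: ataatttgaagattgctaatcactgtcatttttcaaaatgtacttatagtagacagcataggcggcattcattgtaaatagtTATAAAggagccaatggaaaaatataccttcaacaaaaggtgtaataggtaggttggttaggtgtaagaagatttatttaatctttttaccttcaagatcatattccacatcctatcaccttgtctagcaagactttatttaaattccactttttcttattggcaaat
Bpifa1: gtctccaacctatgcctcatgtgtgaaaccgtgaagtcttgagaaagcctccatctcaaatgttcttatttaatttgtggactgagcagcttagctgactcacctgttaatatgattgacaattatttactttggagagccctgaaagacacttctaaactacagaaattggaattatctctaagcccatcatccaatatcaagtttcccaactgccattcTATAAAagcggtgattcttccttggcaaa
Dnah6: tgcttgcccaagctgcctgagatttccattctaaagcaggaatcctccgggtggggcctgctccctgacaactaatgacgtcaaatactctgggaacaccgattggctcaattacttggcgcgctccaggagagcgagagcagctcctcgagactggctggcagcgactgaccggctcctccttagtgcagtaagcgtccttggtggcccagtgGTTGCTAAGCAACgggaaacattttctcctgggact
None of the 6 motifs lay in the window of E030002O03Rik. The windows of Bpifa1 and Ugt2a1 each held a TATA box, beginning 29 and 168 bases before the start, and that of Dnah6 held an X-box beginning 36 bases before the start. A match is a description of the letters and not of a bound factor.

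When only the 6 libraries compared were fitted, so that the spread among heterozygous mice did not enter, 47 of 19783 genes passed (0.238%). Of these, 38 lay outside the Taar family, 34 of them lower and 4 higher in homozygous mice. Of the 34 lower genes, the sustentacular, gland and ciliated cell lists each held 2, which were Ugt2a1 and Aldh3a1, Bpifa1 and Dmbt1, and Hydin and Dnah9. Changes were small, with a median size of 0.43 on the log2 scale, and 11 of the 38 exceeded 1.5-fold. In the fit of all 9 libraries, 37 of the 38 had an unadjusted p under 0.05, and apart from E030002O03Rik the lowest adjusted p was 0.0799. The 2 fits contrast the same 6 libraries and differ in the estimate of the spread. The count filter, the TMM factors and the adjustment were also redone on the 6 libraries. Leaving heterozygous replicate 3 out of the fit of 9 raised the calls outside the family from 1 to 24, every one of them among the 38, whereas leaving out any other library gave 1 to 7.

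Heterozygous replicate 3 lay within or beyond the homozygous range for 19 of the 38 genes and on the wild type side for the other 19. Heterozygous replicate 1 lay on the wild type side for 36 of them and heterozygous replicate 2 for 35. For 17 genes all 3 heterozygous libraries were on the wild type side, and these included Ugt2a1, Cyp2f2, Aox3, Syne1, Utrn, Mgat4a, Plcb4, Ahnak and Hydin. For the others a level like that of the homozygous mice was thus also seen in at least 1 mouse with an intact copy. Against heterozygous mice, where 23 genes were called overall (0.114%), 2 of the 38 passed, Ugt2a1 (log2 fold change -0.29, edgeR adjusted p = 0.0383) and Utrn (-0.30, edgeR adjusted p = 0.0337).

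**Figure D3:**
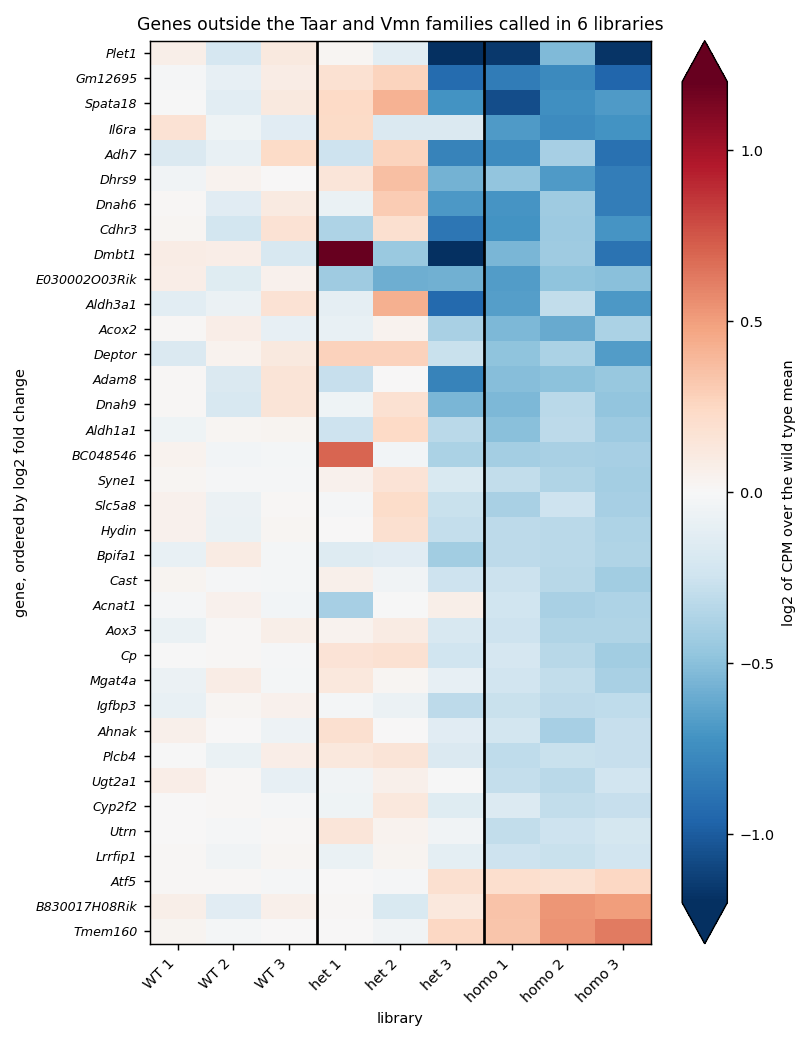
Log2 ratio of CPM to the wild type mean (colour, blue lower and red higher, saturated at 1.2) for genes outside the Taar and vomeronasal receptor families called in the fit of 6 libraries, in rows, over the 9 libraries, in columns. Many rows that are blue in the 3 homozygous libraries are blue in heterozygous replicate 3 as well, among them Gm12695, Spata18 and Dnah6, whereas Ugt2a1 and Utrn are not.

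Of the sustentacular list, 16 genes were tested and none passed in the fit of 9, while 7 had an unadjusted p under 0.05 with a lower level and none with a higher level, beside 4.71% and 4.55% of all genes. The homozygous libraries lay wholly below the wild type ones for 8 of the 16, and the median log2 fold change was -0.11. Ugt2a1, a UDP-glucuronosyltransferase that conjugates odorants, had 692, 665 and 613 CPM in wild type mice, 639, 686 and 656 CPM in heterozygous mice and 539.5, 525 and 559.5 CPM in homozygous mice. All 6 libraries with an intact copy lay above the 3 without one. Its log2 fold change against wild type was -0.28 (SE 0.0493), with an edgeR adjusted p of 0.0799 in the fit of 9 and 0.0297 in the fit of 6. Ugt2a1 lies at chromosome 5, 87459490 to 87490871, and 68.9% of its exonic length is shared with Ugt2a2 on the same strand, so how reads were split between them is uncertain. Ugt2a2 was counted at 39.7, 39.7 and 41.8 CPM in wild type mice and 38.4, 38.8 and 39.0 CPM in homozygous mice.

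The next sustentacular genes by p did not pass in either fit. Gpx6, an olfactory glutathione peroxidase, had 975, 947 and 825 CPM in wild type mice and 797, 725 and 840.5 CPM in homozygous mice, with overlapping groups, and Sult1c1, a sulfotransferase, had 558, 573 and 583 CPM against 518, 521 and 509 CPM without overlap. Of the defining markers Cyp2g1 and Cyp2a5, 1 overlapped between the genotypes and 1 did not, and the marker Cyp1a2 is not reported here. Cyp2g1, an olfactory cytochrome P450, was at 2221, 2327 and 2278 CPM in wild type mice and at 2231, 2144 and 2333 CPM in homozygous mice, and Cyp2a5, another P450, was at 3202, 3379 and 3102 CPM against 2859, 2821 and 3040 CPM, a log2 fold change of -0.15 that was like that of Sult1c1. The list summed to 12970 to 13460 CPM in wild type mice, 12150 to 13350 CPM in heterozygous mice and 11970 to 12730 CPM in homozygous mice. Negative log2 fold changes were found for 14 of the 16. The 7 genes at an unadjusted p under 0.05 became 4 without homozygous replicate 3 and 3 when the vomeronasal receptor reads of each library were added to the fit as a covariate. Those reads were high only in homozygous replicates 2 and 3 and heterozygous replicate 1. Fits with that covariate therefore lean on homozygous replicate 1, and the covariate and genotype cannot be fully told apart.

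Several other metabolic enzymes passed in the fit of 6 libraries. Cyp2f2, a cytochrome P450 of airway and olfactory epithelium, was at 1045, 1049 and 1033 CPM in wild type mice and 925, 846 and 858 CPM in homozygous mice (edgeR adjusted p = 0.0244). Aldh1a1, which makes retinoic acid from retinal, was at 180, 190.5 and 191 CPM against 132, 150.4 and 138.5 CPM (edgeR adjusted p = 0.00256). The lowest heterozygous value of Aldh1a1, 149 CPM in replicate 3, fell among the homozygous libraries, while that of Cyp2f2, 941.5 CPM, lay just above them. Dhrs9, a retinol dehydrogenase, was at 12.4, 13.0 and 12.7 CPM against 9.16, 7.93 and 7.16 CPM, and Adh7, an alcohol dehydrogenase that oxidizes retinol, at 32.6, 34.6 and 43.0 CPM against 21.7, 27.9 and 19.7 CPM. Aox3, an aldehyde oxidase, was at 60.4, 64.3 and 67.1 CPM against 53.7, 49.7 and 49.8 CPM, and Acox2, a peroxisomal acyl-CoA oxidase, at 21.1, 22.0 and 19.6 CPM against 14.4, 13.7 and 16.1 CPM. In all of these the 3 homozygous libraries lay below the 3 wild type ones, including homozygous replicate 1. These genes were named because they passed in the fit of the same libraries, so the separation is no further evidence. It was found for 7.95% of all genes. Aldh3a1 and Acnat1, further enzymes of detoxification and lipid metabolism, were also lower in this fit.

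**Figure D4:**
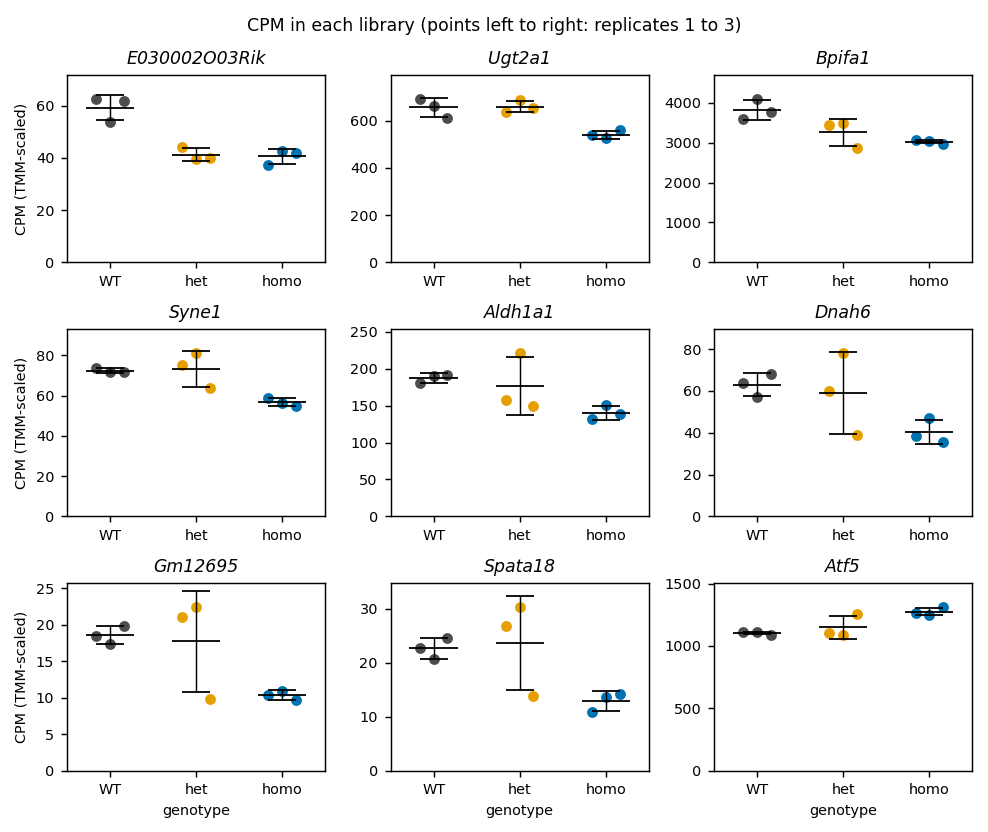
CPM (vertical axes, linear from 0) of 9 genes in each library by genotype, with points for replicates 1 to 3 from left to right, a horizontal line for the mean and bars of 1 SD (n = 3). E030002O03Rik is low in heterozygous and homozygous mice alike, Ugt2a1 is low in homozygous mice, and 1 heterozygous mouse lies at the homozygous level for Dnah6, Gm12695 and Spata18.

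Of 17 genes of the gland and nasal secretion list tested, none passed in the fit of 9. At an unadjusted p under 0.05, 4 were lower and none higher, beside 4.71% and 4.55% of all genes. The homozygous libraries lay wholly below the wild type ones for 3 of the 17, beside 7.95% of all genes. The median log2 fold change was -0.22, and it was -0.108 without wild type replicate 3, -0.347 with the replicate number as a block, -0.369 with the vomeronasal covariate and -0.094 in the fit of 6 with that covariate. Without wild type replicate 1, 2 genes were at that p. Bpifa1, an abundant secreted protein of nasal mucus, was at 3592, 4095 and 3769 CPM in wild type mice, 3436, 3486 and 2869 CPM in heterozygous mice and 3064, 3050 and 2973 CPM in homozygous mice. Its log2 fold change was -0.33 (SE 0.0613), with an edgeR adjusted p of 0.105 in the fit of 9 and 0.00256 in the fit of 6, and the lowest single value was that of heterozygous replicate 3. Bpifb1, a related mucosal protein, was at 37.5, 37.2 and 35.3 CPM in wild type mice against 30.8, 29.4 and 24.1 CPM in homozygous mice. Bpifb6, of the same family, was at 992, 973 and 875 CPM against 854, 750.3 and 933 CPM, with overlapping groups.

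Dmbt1, a secreted scavenger receptor of mucosa, passed in the fit of 6 (edgeR adjusted p = 0.018) and had 143, 143 and 118 CPM in wild type mice against 92.2, 101 and 73.0 CPM in homozygous mice. Its heterozygous values, 370, 99.0 and 57.3 CPM, reached past both groups, and in the fit of 9 its adjusted p was 0.71 by edgeR. The defining gland markers Sox9, Aqp5 and Muc5b did not differ in this way, with 25.7, 26.0 and 21.7 CPM of Sox9 in wild type mice and 23.8, 29.8 and 22.6 CPM in homozygous mice. The secretory gene Bpifb9b, named here after its values were seen, varied widely within each genotype. It was at 1337, 776 and 4012 CPM in wild type mice, 2296, 2714 and 81.7 CPM in heterozygous mice and 705, 2204 and 105 CPM in homozygous mice. Heterozygous replicate 3 and homozygous replicate 3 shared the low values, and whether the amount of such gland tissue in a dissection bears on the lower levels given above was not tested.

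All 15 genes of the ciliated cell list had negative log2 fold changes, between -0.65 and -0.003, with a median of -0.12. None passed in the fit of 9, 4 had an unadjusted p under 0.05 with a lower level, and 3 had homozygous libraries wholly below wild type. Of all 20213 genes, 4.71% were lower at that p, 7.95% lay wholly below wild type and 10147 had negative log2 fold changes. The 4 genes became 8 without homozygous replicate 2 and 2 without homozygous replicate 1. Hydin, a protein of the central pair of motile cilia, was at 55.1, 50.2 and 54.0 CPM in wild type mice, 53.2, 60.5 and 43.4 CPM in heterozygous mice and 42.7, 42.4 and 41.1 CPM in homozygous mice. Dnah9, an axonemal dynein heavy chain, was at 82.3, 71.3 and 90.5 CPM in wild type mice, 78.5, 92.4 and 55.7 CPM in heterozygous mice and 56.2, 65.2 and 58.7 CPM in homozygous mice. Both passed in the fit of 6, with edgeR adjusted p of 0.0208 and 0.0297, and in the fit of 9 they had 0.317 and 0.345. Dnah5, a second outer arm dynein, was at 102, 85.4 and 114 CPM against 53.0, 83.1 and 55.5 CPM and passed in neither.

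Genes outside that list passed in the fit of 6 as well, among them a dynein. Dnah6, an inner arm dynein heavy chain whose promoter window is printed above, was at 63.9, 57.3 and 67.9 CPM in wild type mice and 38.7, 47.0 and 35.5 CPM in homozygous mice (edgeR adjusted p = 0.00439). Cdhr3, a cadherin of airway ciliated cells, was at 42.3, 35.8 and 46.9 CPM against 25.4, 30.8 and 25.5 CPM (edgeR adjusted p = 0.018), and Spata18, a mitochondrial quality control gene, at 22.7, 20.7 and 24.6 CPM against 10.9, 13.7 and 14.2 CPM (edgeR adjusted p = 0.00256). Gm12695, a predicted coding gene, was at 18.5, 17.4 and 19.8 CPM against 10.39, 10.97 and 9.63 CPM (edgeR adjusted p = 0.000581). Heterozygous replicate 3 had 39.1, 22.8, 13.8 and 9.81 CPM of these 4 genes, each within or below the homozygous range, and the other heterozygous mice lay within or above the wild type range for Dnah6, Spata18 and Gm12695. Foxj1, the transcription factor that defines motile ciliated cells, was at 143, 144 and 153 CPM in wild type mice and 138, 144 and 135 CPM in homozygous mice. In the fit of 9, Gm12695, Spata18, Dnah6 and Cdhr3 had edgeR adjusted p from 0.289 to 0.345.

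The remaining genes of the 25 with smallest p in the fit of 6 had varied roles. Syne1, a giant nuclear envelope protein that links the nucleus to the cytoskeleton, was at 73.8, 71.6 and 71.95 CPM in wild type mice, 75.1, 81.1 and 63.8 CPM in heterozygous mice and 59.0, 56.5 and 54.8 CPM in homozygous mice, with an edgeR adjusted p of 0.173 in the fit of 9 and 0.00439 in the fit of 6. BC048546, whose place in the annotation was not found by its symbol, was at 394, 374 and 377 CPM against 288, 291.5 and 289 CPM, while heterozygous replicate 1 held 620 CPM of it. Slc5a8, a monocarboxylate transporter, was at 83.0, 76.1 and 81.0 CPM against 61.1, 67.5 and 60.8 CPM. Among surface and signalling genes, Plet1, a surface protein of epithelial progenitors, was at 16.2, 13.4 and 16.7 CPM against 6.90, 10.7 and 6.81 CPM, the largest fold of this set among lower genes. Adam8, a membrane protease, was at 36.2, 31.8 and 39.9 CPM against 25.3, 25.5 and 26.2 CPM, and Igfbp3, which binds insulin-like growth factors, at 65.7, 71.2 and 72.6 CPM against 58.0, 56.1 and 56.4 CPM. Mgat4a, a glycosyltransferase of the Golgi, was at 89.5, 99.7 and 92.4 CPM against 79.9, 76.4 and 71.8 CPM, and Plcb4, a phospholipase C, at 86.5, 82.2 and 92.1 CPM against 70.5, 72.01 and 71.7 CPM. Ahnak, a very large scaffold protein, was at 235, 227 and 217 CPM against 194, 172 and 187 CPM. Lrrfip1, Cast, Cp, Deptor, Il6ra and Utrn were also among the lower genes, and Utrn, the dystrophin relative singled out above because it also differed from heterozygous mice, was at 86.1, 85.0 and 86.7 CPM in wild type mice, 94.9, 88.6 and 83.6 CPM in heterozygous mice and 69.8, 72.5 and 74.4 CPM in homozygous mice.

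The 4 higher genes of that fit were Atf5, Tmem160, B830017H08Rik and Vmn2r1. Atf5, a transcription factor of the unfolded protein response that OSNs need to settle on 1 receptor and mature, was at 1111, 1108 and 1091 CPM in wild type mice, 1104, 1090 and 1254 CPM in heterozygous mice and 1267, 1250 and 1310 CPM in homozygous mice. Its log2 fold change was 0.21 (SE 0.0488), with an edgeR adjusted p of 0.237 in the fit of 9 and 0.0297 in the fit of 6. Heterozygous replicate 3 again lay at the homozygous level. Tmem160, a transmembrane protein given with values because only 4 genes were higher, was at 12.6, 12.1 and 12.4 CPM in wild type mice, 12.4, 11.95 and 14.6 CPM in heterozygous mice and 15.5, 17.9 and 19.0 CPM in homozygous mice. Both were highest in homozygous replicate 3.

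No neuronal list had a gene that passed in the fit of 9. Of 20 genes of the mature OSN list, 5 were higher at an unadjusted p under 0.05 and none lower, beside 4.55% and 4.71% of all genes. A positive log2 fold change was found for 16 of the 20, beside 10059 of all 20213 genes, and the median of the list was 0.07. The 5 genes became 2 without wild type replicate 2, 2 (and 1 lower) without homozygous replicate 1, 8 without homozygous replicate 2 and 3 without homozygous replicate 3. Omp was at 3104, 3117 and 3127 CPM in wild type mice, 3114, 3045 and 3432 CPM in heterozygous mice and 3410, 3196 and 3550 CPM in homozygous mice. Rtp1, a chaperone that brings odorant receptors to the membrane, was at 570.3, 600 and 608 CPM against 643, 658.5 and 662 CPM, and Gfy, a Golgi protein of OSNs, at 1142, 1004 and 925 CPM against 1299, 1066 and 1159 CPM. The homozygous mice lay above the wild type mice for Omp and Rtp1 and overlapped with them for Gfy. The list summed to 12130 to 12620 CPM in wild type mice and 12680 to 13560 CPM in homozygous mice, and to 13340 CPM in heterozygous replicate 3.

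At an unadjusted p under 0.05, 5 of 14 immature OSN genes were higher and none lower, beside 4.55% and 4.71% of all genes. The median was 0.10, a pattern like that of the mature OSN genes. Those 5 became 9 without heterozygous replicate 3 and 3 without homozygous replicate 1. Crmp1, a collapsin response mediator of growing axons, was at 134, 124 and 114 CPM in wild type mice and 143, 140.2 and 142 CPM in homozygous mice, and Dbn1, drebrin, an actin-binding protein of growth cones, was at 131, 128.5 and 126 CPM against 147, 135 and 152 CPM. Trib3, a pseudokinase of the stress response, was at 38.8, 40.3 and 41.3 CPM against 40.3, 52.1 and 46.3 CPM, so homozygous replicate 1 was at the wild type level. None passed (edgeR adjusted p of 0.345 for Crmp1, the lowest of the list).

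Among 14 genes of globose basal cells and neuronal precursors, 2 had an unadjusted p under 0.05 with a higher level and 1 with a lower level. Insm1, a zinc finger factor of dividing neuronal progenitors, was at 198, 176 and 169 CPM in wild type mice and 208, 243 and 230 CPM in homozygous mice (log2 fold change 0.33, edgeR adjusted p = 0.221 in the fit of 9 and 0.0593 in the fit of 6). Nhlh1, a helix-loop-helix factor of early neurons, was at 153, 147 and 133 CPM against 157, 166.5 and 165 CPM, and the proliferation marker Mki67 at 213, 210.4 and 188 CPM against 199, 188 and 174 CPM. Of all genes, 4.71% were lower and 4.55% higher at an unadjusted p under 0.05, and a count of 1 in 14 is near that background. No gene of the list was lower at that p in the fit of 6. The same held without wild type replicate 1, wild type replicate 2, homozygous replicate 2 or homozygous replicate 3. Insm1 passed only with DESeq2, where its adjusted p was 0.0029 without independent filtering.

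The receptor choice list, regulators of OSN receptor expression such as Lhx2, Ldb1 and the EBF factors, had 4 of 15 genes at an unadjusted p under 0.05 and higher and none lower. Besides Atf5 these included Ebf3, at 650, 636 and 649 CPM in wild type mice and 667, 754 and 703 CPM in homozygous mice, and Ebf4, at 417, 415 and 429.5 CPM against 474, 428 and 499 CPM. The median of the list was 0.03. Of 14 genes of dorsal and ventral identity and axon guidance, 3 were higher and 1 lower at that p. For both lists the shares of all genes were 4.55% higher and 4.71% lower. Efna5, an axon guidance ligand, was at 96.5, 88.2 and 97.0 CPM against 110, 112 and 100.4 CPM. Acsm4, an acyl-CoA synthetase of the dorsal zone, was at 412, 414 and 338 CPM against 332, 317 and 360.4 CPM, with overlap.

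Odorant receptor genes, the large family that most OSNs express, summed to 3023 to 3134 CPM in wild type mice and 3144 to 3279 CPM in homozygous mice. Of 1070 tested, none passed, 47 had an unadjusted p under 0.05 with a higher level and 7 with a lower one, shares to be read against 4.55% and 4.71% of all genes, and the median log2 fold change was 0.06. Of 11 genes that mark other olfactory neuron subsystems, 2 were higher at that p, Cnga3 and Gucy2d, both of the guanylyl cyclase D neurons. Gucy2d was at 7.23, 7.03 and 7.77 CPM in wild type mice and 9.05, 8.90 and 10.14 CPM in homozygous mice, and heterozygous mice had 6.63, 9.19 and 9.88 CPM.

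**Figure D5:**
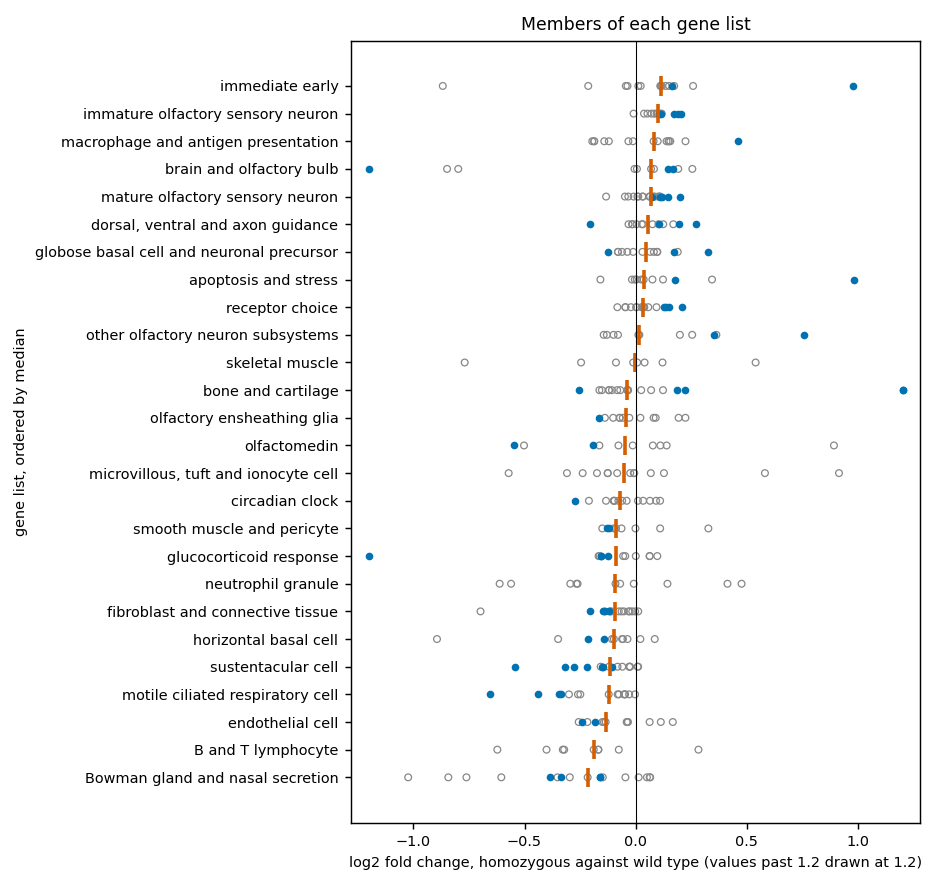
Log2 fold change of homozygous against wild type (horizontal axis) for each tested member of 26 gene lists (vertical axis, ordered by median), with filled blue points for an unadjusted p under 0.05, open points for others and an orange bar for the median. The lowest medians are those of the gland, lymphocyte, endothelial, ciliated and sustentacular lists. The highest are those of the immediate early, immature OSN and macrophage lists, and that of the mature OSN list also lies right of 0. The 26 medians range from -0.22 to 0.11. The vomeronasal list beside the receptors (median 1.41) and the erythroid list (median 0.14) are not drawn.

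Horizontal basal cells, the reserve stem cells of the epithelium, had 2 of 11 genes at an unadjusted p under 0.05, both lower, beside 4.71% of all genes. Krt14, a basal keratin, was at 27.3, 25.3 and 27.6 CPM in wild type mice, 23.8, 24.4 and 22.2 CPM in heterozygous mice and 22.8, 23.9 and 22.2 CPM in homozygous mice, and Itga6, a basal integrin, was at 78.7, 73.2 and 74.3 CPM against 65.8, 70.3 and 68.9 CPM. Trp63, the factor that defines these cells, was at 27.1, 30.3 and 29.6 CPM against 31.7, 30.6 and 30.1 CPM. Of 14 genes of microvillous, tuft and ionocyte cells, none reached that p in either direction.

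Of 16 fibroblast and connective tissue genes, none passed. An unadjusted p under 0.05 was reached by 5 with a lower level and none with a higher one, beside 4.71% and 4.55% of all genes. The median of the list was -0.09. The median was -0.046 without homozygous replicate 2 and -0.058 without wild type replicate 1, and 3 genes were at that p without wild type replicate 1, wild type replicate 3 or homozygous replicate 3. In the fit of 6 with the vomeronasal covariate 2 genes were, with a median of -0.026. Postn, periostin, an extracellular matrix protein, was at 427.5, 394 and 402 CPM in wild type mice, 432, 410 and 387 CPM in heterozygous mice and 367, 358 and 335 CPM in homozygous mice (log2 fold change -0.21, edgeR adjusted p = 0.294). Dcn, the proteoglycan decorin, was at 287, 300 and 280 CPM against 258, 256 and 269 CPM, and Fbn1, fibrillin, at 47.9, 44.4 and 45.6 CPM against 42.7, 40.7 and 41.1 CPM. Col1a1, a collagen gene of connective tissue and bone and a defining marker, was at 5137, 4297 and 4532 CPM against 4961, 4276 and 4837 CPM, with overlap. Of 18 bone and cartilage genes, 1 was lower at that p, which is near the share of all genes, and 4 were higher. The 4 became 1 without wild type replicate 1, wild type replicate 2, homozygous replicate 1 or homozygous replicate 3, and 2 without wild type replicate 3. The count of lower genes in these fits was 1 to 3. Ctsk, the osteoclast protease, was at 467, 416 and 437 CPM against 346, 362 and 397 CPM. Bglap2, an osteocalcin gene, was at 23.9, 22.6 and 24.9 CPM against 27.3, 25.9 and 27.9 CPM. Matn3, a cartilage matrix protein, was near the limit of 3 reads in wild type mice, at 0.121, 0.183 and 0.116 CPM, and at 0.845, 0.163 and 0.464 CPM in homozygous mice.

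Of 13 endothelial genes, 2 had an unadjusted p under 0.05, both lower, and 4 had homozygous libraries wholly below wild type. Cdh5, the cadherin of endothelial junctions, was at 24.3, 25.2 and 24.9 CPM in wild type mice and 20.5, 21.5 and 21.1 CPM in homozygous mice (log2 fold change -0.24, edgeR adjusted p = 0.343), and Pecam1, an endothelial adhesion molecule, was at 29.8, 28.5 and 27.95 CPM against 25.9, 22.9 and 27.2 CPM. Of 9 smooth muscle and pericyte genes, 2 were lower, the pericyte genes Rgs5, at 441, 463 and 461 CPM against 424, 416 and 416 CPM, and Pdgfrb, at 82.4, 81.1 and 78.8 CPM against 71.6, 71.2 and 78.6 CPM. Of 12 genes of olfactory ensheathing glia, which wrap OSN axons, 1 was lower, the neuregulin receptor Erbb3, at 82.2, 87.6 and 82.9 CPM against 77.4, 72.9 and 75.1 CPM. Of all genes, 4.71% were lower at that p and 7.95% had homozygous libraries wholly below wild type. A count of 1 in a list of this size is near that background.

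Few genes of the blood, muscle and brain lists reached an unadjusted p under 0.05, beside 4.71% of all genes lower and 4.55% higher. Among 15 macrophage and antigen presentation genes, 1 reached an unadjusted p under 0.05, Cd74, the invariant chain of MHC class II, at 24.9, 19.9 and 19.2 CPM in wild type mice, 27.3, 23.0 and 21.3 CPM in heterozygous mice and 34.4, 27.7 and 25.7 CPM in homozygous mice (log2 fold change 0.46, edgeR adjusted p = 0.317). With the replicate block its edgeR adjusted p was 0.0149. None of 11 neutrophil granule genes, 9 lymphocyte genes, 8 skeletal muscle genes and 3 erythroid genes reached that p. The neutrophil list summed to 551.5 to 861 CPM in wild type mice and 368 to 635 CPM in homozygous mice, nearly all of it Ltf, lactoferrin, which nasal glands secrete as well, and heterozygous replicate 3 had the lowest sum, 326 CPM. Of 11 brain and olfactory bulb genes, 2 were higher at that p, Olig1 and Olig2, and 1 lower, Gad1, the GABA-making enzyme, at 0.723, 0.642 and 0.735 CPM in wild type mice and 0.352, 0.0813 and 0.155 CPM in homozygous mice.

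Vomeronasal receptor genes had high levels in 2 of the 3 homozygous libraries. The filter of 10 summed reads kept 81 of the 211 Vmn1r genes and 99 of the 127 Vmn2r genes. An unadjusted p under 0.05 with a higher level was reached by 46 of these Vmn1r genes and 72 of these Vmn2r genes. None was lower at that p. The filter sums all libraries, so it favours genes with reads in homozygous replicates 2 and 3 or heterozygous replicate 1. A gene with almost no wild type reads can hardly test lower, so these counts depend in part on the filter. Summed over every gene of the family in the table, the Vmn1r genes came to 2.38 to 3.41 CPM in wild type mice and to 2.61, 41.9 and 23.0 CPM in homozygous replicates 1 to 3, and the Vmn2r genes came to 11.2 to 13.7 CPM against 14.7, 78.0 and 46.5 CPM. Homozygous replicate 1 was thus close to the wild type mice in both families. Vmn2r1, the receptor gene of smallest p, was at 0.402, 0.458 and 0.425 CPM in wild type mice, 1.92, 0.945 and 0.474 CPM in heterozygous mice and 0.845, 2.76 and 2.55 CPM in homozygous mice (log2 fold change 2.23, edgeR adjusted p = 0.221 in the fit of 9 and 0.0413 in the fit of 6). Of 10 other vomeronasal genes tested, 7 were higher at an unadjusted p under 0.05, with the same limit from the filter. The summed level of that list did not rise. It was 288, 305.5 and 180 CPM in wild type mice and 255, 232 and 194 CPM in homozygous mice. Calr4, a chaperone of vomeronasal neurons, was at 3.33, 2.84 and 2.28 CPM in wild type mice and 3.91, 14.2 and 8.59 CPM in homozygous mice, and H2-M10.4 and H2-M10.5, class I genes of those neurons, were at or under 0.0306 CPM in every wild type library and at 0 in homozygous replicate 1. The high levels in homozygous replicates 2 and 3 were shared by heterozygous replicate 1 for Calr4, at 8.44 CPM.

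Of 15 immediate early genes, 2 were higher at an unadjusted p under 0.05, Jun and Fosb, both transcription factors that cells switch on within minutes of a stimulus. Of all genes, 4.55% were higher at that p. The median of the list was 0.11. With the vomeronasal covariate, in a fit that leans on homozygous replicate 1, none was higher and 3 were lower at that p, with a median of -0.177. Without homozygous replicate 2, 1 was higher, with a median of -0.056, and 5 were higher without homozygous replicate 1 and 4 without homozygous replicate 3. Jun was at 163, 153.0 and 160 CPM in wild type mice and 175.5, 181 and 177 CPM in homozygous mice, above all wild type mice. Fosb was at 1.77, 1.71 and 1.74 CPM in wild type mice and 1.87, 6.14 and 2.36 CPM in homozygous mice, so that replicate 2 alone was far above the rest, and Atf3, a stress factor, was at 3.33, 4.19 and 3.17 CPM against 3.49, 13.7 and 4.22 CPM with the same library high. Of 12 glucocorticoid response genes, 4 were lower at that p, beside 4.71% of all genes. Zbtb16, a hormone-responsive transcription factor, was at 8.75, 15.7 and 7.19 CPM in wild type mice, 17.7, 14.03 and 13.1 CPM in heterozygous mice and 6.52, 2.15 and 3.37 CPM in homozygous mice. It did not pass against wild type (log2 fold change -1.39, edgeR adjusted p = 0.221) and passed against heterozygous mice (-1.88, edgeR adjusted p = 0.0337). Without homozygous replicate 1, its highest homozygous value, it passed against wild type (-1.94, edgeR adjusted p = 0.0364). Of 14 clock genes, 1 was lower, Arntl, the core activator of the clock, at 25.5, 29.4 and 24.7 CPM against 25.2, 19.3 and 21.4 CPM. That count is near the 4.71% of all genes that were lower at that p. Of 11 apoptosis and stress genes, Atf3 and Ddit3 were higher, and Ddit3 was at 35.1, 39.2 and 36.9 CPM against 38.8, 45.5 and 41.5 CPM.

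The largest fold changes among genes outside the receptor families with at least 1 CPM on average and no overlap belonged to genes of low level, and none of them passed. On the lower side were Capn11, Klk1, Zbtb16, Ifi202b and Tm4sf19, with log2 fold changes from -2.04 to -1.04. Capn11, a calpain protease, was at 3.25, 2.02 and 0.735 CPM in wild type mice, 0.428, 0.605 and 0.609 CPM in heterozygous mice and 0.423, 0.488 and 0.542 CPM in homozygous mice, so the heterozygous mice lay below the wild type ones too (edgeR adjusted p = 0.22, and 0.0061 without wild type replicate 3, its lowest wild type value). Klk1, a kallikrein protease of glands, was at 27.0, 18.8 and 36.2 CPM in wild type mice, 23.1, 41.0 and 2.503 CPM in heterozygous mice and 5.35, 18.3 and 7.70 CPM in homozygous mice. The higher side included Calr4, Fosb, Hlx and Gm7534, with log2 fold changes from 0.77 to 1.65, and Calr4, Fosb and Gm7534 were highest in homozygous replicate 2. Gm7534 was at 13.2, 11.7 and 10.09 CPM in wild type mice, 20.1, 10.7 and 10.9 CPM in heterozygous mice and 14.3, 27.1 and 18.5 CPM in homozygous mice, the same order of libraries as the vomeronasal receptor reads within the homozygous mice.

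Genes beside the Taar cluster were not called. The cluster spans 23920356 to 24109534 on chromosome 10, and of 14 other genes tested within 1 Mb of it none passed or reached an unadjusted p under 0.05, with log2 fold changes from -1.07 to 0.86 and a lowest edgeR adjusted p of 0.623. Stx7, Slc18b1 and Moxd1, 3 of the 5 nearest genes, had log2 fold changes of 0.10, 0.0027 and -0.0081. The other 2, Vnn1 and Vnn3, pantetheinase genes of low level, had -0.60 (SE 0.409) and -0.80 (SE 0.50), with overlapping groups. Of the 38 genes of the fit of 6, Utrn, Syne1 and Slc5a8 lie on the same chromosome, at 11.05, 18.37 and 64.78 Mb from the cluster.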

How the data were processed

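RNA-seq was done by the authors on whole MOE of 9 mice, 3 of each genotype, and genotypes and replicate numbers were taken from the sample labels. The deposited table holds raw read counts per gene, which the authors made by trimming reads, mapping them to the mouse genome (GRCm38, mm10) and counting. Per the labels' processing notes, Trimmomatic 0.36, HISAT2 2.1.0, HTSeq 0.6.1p1 and DESeq2 1.20.0 were used, while the study's methods name featureCounts as the counter. The gene annotation and the strand setting of the counter are not given in the sources used here. The table has 24421 gene rows, and its 5 summary rows, which name no gene, entered neither the library sizes nor any test. Reads assigned to genes made up 57.4 to 60% of each column, and the summary rows held the rest. A second table with counts divided by size factors was not used.

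The 20213 genes whose counts added up to 10 or more across all libraries were kept. Counts were normalized by TMM, and edgeR 4.0.16 (R 4.3.3) was used for a quasi-likelihood test on the 9 libraries, modelled by genotype alone, with Benjamini-Hochberg adjustment over all genes tested. The same test was run on the 6 libraries compared. Means are over 3 mice. The study describes the genotypes as littermates but not which mice shared a litter, and p-values measure the spread between these mice. The 28 gene lists, the members and the rule for naming genes were chosen with earlier results of these data known, so lists are described by counts and medians without a test of their own. Named genes were all calls of the fit of 9, the calls of the fit of 6 outside the Taar family (the 25 of smallest p with values), up to 3 genes of smallest p in each list, with its first markers, the 5 largest changes in each direction among genes with at least 1 CPM and no overlap, and the vomeronasal receptor gene of smallest p. Other names are given where a sentence singles them out, and a few genes that the rule takes in are not reported here. Coordinates came from GENCODE M21 and promoter windows from RefSeq on GRCm38.p6, the assembly of the files, by symbol or synonym.

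Alternatives were DESeq2 1.42.0 with and without independent filtering, DESeq2 size factors, 2 other filters, a fold threshold of 1.5, the replicate number as a block, vomeronasal receptor reads as a covariate, leaving out homozygous replicates 2 and 3, and leaving out each library. Fitting the 6 libraries with that covariate was added after seeing the data. Whether the replicate numbers pair the mice is not known. Deviations of wild type and homozygous mice of the same number correlated at -0.011, -0.042 and -0.064 over 16167 genes. Such deviations from means of 3 mice cannot show whether mice shared a litter or were handled together. The scripts were tested on simulated counts.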

Additional observations from a re-analysis of the deposited data

How the results depend on the processing

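The 10 calls, 1 of them outside the Taar family, became 63 and 63 with DESeq2 at default settings, whose independent filtering left the 9 Taar genes without an adjusted p, 54 and 45 with DESeq2 without it, 47 and 38 in the fit of the 6 libraries, and 19 and 14 in that fit with the vomeronasal covariate. Outside the family there were 4 calls without a filter on low counts (Bpifa1, Ugt2a1 and 5430419D17Rik beside E030002O03Rik), 3 without homozygous replicates 2 and 3 (Pisd-ps1 and Pisd-ps2 beside it) and 0 with a 1.5-fold threshold, since the change of E030002O03Rik was smaller than that. The DESeq2 calls at default settings were 39 lower and 24 higher, and 16 of these were among the 38 of the fit of 6. Without independent filtering, 29 of those outside the family were lower and 16 higher, and 20 were among the 38. The fit of 6 gave 34 lower and 4 higher. Leaving out each library gave 8 to 33 calls, and 1 to 24 outside the family. The highest counts came without heterozygous replicate 3, and without heterozygous replicate 2 there were 16 and 7. Outside the family, 4 were called without wild type replicate 3 and 4 without homozygous replicate 1. With the replicate block there were 12 calls, 3 of them outside the family (E030002O03Rik, Bpifa1 and Cd74). E030002O03Rik was called in every one of these fits, apart from the 1.5-fold threshold.

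The direction of 4 named genes, none of them called, turned in the fits with the vomeronasal covariate or without homozygous replicates 2 and 3. With the covariate, the log2 fold change of Fosb was -0.177 and the log2 fold change of H2-M10.5 was -0.832. In the fit of 6 with it, the log2 fold change of Atf3 was -0.387, the log2 fold change of Fosb -0.19, the log2 fold change of H2-M10.5 -0.178 and the log2 fold change of Trib3 -0.033. Without homozygous replicates 2 and 3, the log2 fold change of Atf3 was -0.039. The fold threshold was run for counts of calls only, since it gives no fold change or median of its own. The cause of the changes in count was not tested. Depth limits the low genes, since 3 reads came to 0.0916 to 0.122 CPM in a library.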
